A study of Mus musculus with 2 samples.

Results

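The mRNAs of 10 enzymes that make or break down eicosanoids were examined in leukemic stem cells (LSCs) from mice with BCR-ABL-driven chronic myeloid leukemia (CML). The genes were chosen by symbol, without a threshold on their values but with earlier results of these data known. All 10 were present among the 23284 genes listed in each library. The study sequenced RNA from 1 library of WT cells and 1 library of STAP-1 KO cells. Donor LSK cells (lineage-negative, Sca-1-positive and c-Kit-high marrow cells) came from C57BL/6J mice that were either wild type or carried a targeted disruption of the STAP-1 gene, which encodes an adapter protein of tyrosine kinase signaling. In both groups the donor cells were transduced with a retrovirus that carries human BCR-ABL and green fluorescent protein (GFP) and were given to lethally irradiated C57BL/6SJL recipients together with unmodified marrow. GFP+ CD45.2+ LSK cells were sorted from primary recipients for sequencing, and the study states an age of 8 to 14 weeks for its mice and day 11 after transplantation for the expression profile. How many mice stood behind each library was not given in the sources used here. With 1 library per genotype there is no replicate check of any difference and no test of the genotype, so mouse, sort, library preparation and genotype cannot be told apart.

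Eicosanoids are lipid mediators made from arachidonic acid, which phospholipase A2 releases from membranes. In the leukotriene branch, 5-lipoxygenase (Alox5) and its activating protein (Alox5ap) form leukotriene A4, which leukotriene A4 hydrolase (Lta4h) turns into the neutrophil attractant leukotriene B4 and leukotriene C4 synthase (Ltc4s) turns into the first of the cysteinyl leukotrienes. In the prostaglandin branch, the cyclooxygenases (Ptgs1 and the inducible Ptgs2) form prostaglandin H2, from which hematopoietic prostaglandin D synthase (Hpgds) makes prostaglandin D2 and microsomal prostaglandin E synthase (Ptges) makes prostaglandin E2. Alox15, the mouse 12/15-lipoxygenase, feeds neither branch, and Hpgd is the dehydrogenase that inactivates prostaglandins. Mast cells, basophils, monocytes and neutrophils are well known sources of these lipids.

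The values are FPKM (read fragments scaled to transcript length and to library size), a scale meant to let genes be set side by side. The ratio of the libraries still varied with transcript length, as described below. The targeted gene Stap1 had 62.0 FPKM in WT LSCs and 0.309 FPKM in STAP-1 KO LSCs. Of the antigens that define LSK cells, Kit had 468 and 30.1 FPKM and Ly6a (Sca-1) had 285 and 106 FPKM in the same order, so that Kit was 15.6-fold lower in STAP-1 KO LSCs. The progenitor marker gene Cd34 had 281 and 194 FPKM. Low values fell on steps, from which depth was estimated as 7505000 reads (WT) and 10480000 reads (STAP-1 KO). The reads quoted for a gene were estimated from these depths, and intervals derived from them cover counting error only, since reads of amplified cDNA are not independent molecules. A value of 3 reads on a transcript of 2000 bases corresponded to 0.223 and 0.160 FPKM.

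Of the 10 genes, 5 were at least 2-fold lower in STAP-1 KO LSCs (Alox5, Ptgs1, Ptgs2, Hpgds and Hpgd), 1 was at least 2-fold higher (Lta4h) and 4 were past the cut-off in neither direction (Alox5ap, Ltc4s, Alox15 and Ptges). Of all 12507 genes with at least 0.1 FPKM in both libraries, 22.9% were at least 2-fold lower and 12.3% at least 2-fold higher. All 10 enzyme genes were above this floor, with Ptges and Hpgd closest to it. Their median log2 ratio, log2((STAP-1 KO + 0.1)/(WT + 0.1)), was -1.03. Over the 7 of them averaging 1 FPKM or more it was -1.50, and over all 10974 genes at that level it was -0.04. The call of Hpgd rested on 5 and 2 estimated reads, and without genes under 10 estimated reads 4 of the enzyme genes were lower and 1 was higher, against 23.2% and 12.1% of the 11753 genes left.

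**Figure D1:**
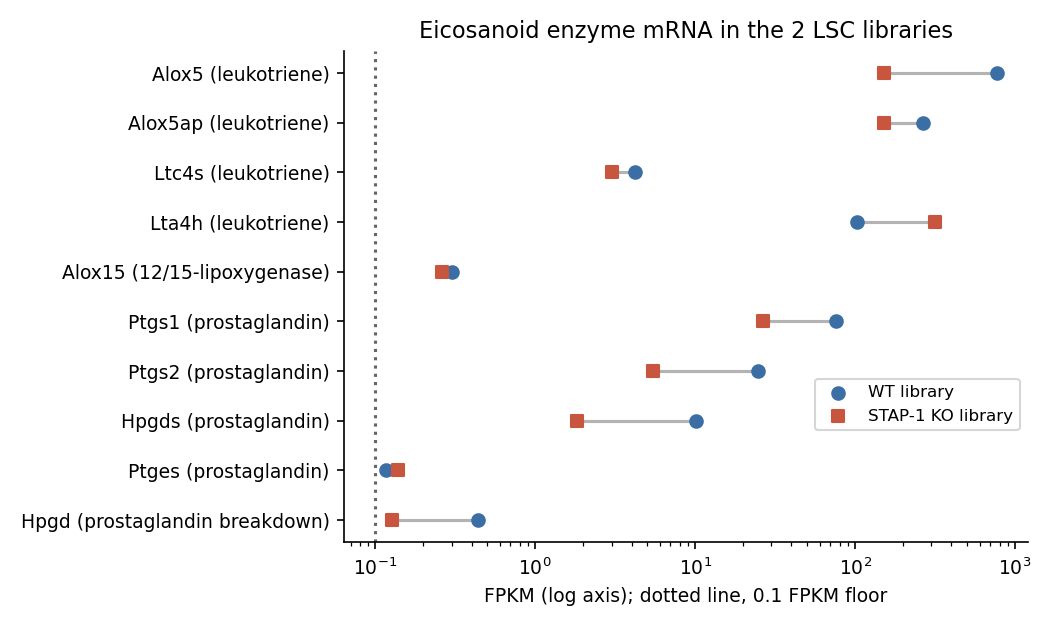
FPKM of each of the 10 enzyme genes in WT LSCs (circles) and STAP-1 KO LSCs (squares) on a log axis, 1 library per genotype and no error bars; the dotted line is the floor of 0.1 FPKM. Alox5, Ptgs1, Ptgs2 and Hpgds lie lower and Lta4h lies higher in STAP-1 KO LSCs, and Alox15, Ptges and Hpgd lie under 1 FPKM in both.

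Alox5 had the highest level of the 10 genes in WT LSCs. The gene spans 116410077 to 116461178 of chromosome 6 in GRCm38 (minus strand). Its level was 771 FPKM in WT LSCs and 152 FPKM in STAP-1 KO LSCs, from 15103 and 4152 estimated reads, which is 5.08-fold lower in STAP-1 KO LSCs. The counting interval of the log2 ratio (95%, exact Clopper-Pearson) ran from -2.39 to -2.30. Alox5 was the 70th most abundant of all listed genes in WT LSCs and the 765th in STAP-1 KO LSCs. In bulk RNA, a smaller number of cells that express a gene and less of its mRNA per cell cannot be told apart, which holds for each gene described here.

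Lta4h (chromosome 10, from 93453411 to 93484875, plus strand), which acts on the product of Alox5, differed in the opposite direction. It had 103 FPKM in WT LSCs and 316 FPKM in STAP-1 KO LSCs, a ratio of 3.07 with a counting interval from 2.89 to 3.25. Among the 10 genes it ranked behind Alox5 and Alox5ap in WT LSCs and first in STAP-1 KO LSCs. Of the genes averaging 1 FPKM or more, 96.6% had a lower log2 ratio than Lta4h and 5.95% a lower one than Alox5.

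The promoters of these genes are shown because neighbouring steps of 1 branch differed in opposite directions. Each sequence is the 250 bases before the RefSeq start of the gene (GRCm38.p6), 5′ to 3′ on the strand of the gene, with matches on either strand in capitals to the ETS factor motif AGGAAG, the GC box motif GGGCGG, the GATA factor motif GATAA, the TATA box motif TATAAA and the core TGACGT of the cyclic AMP response element. That of Alox5 lies at chr6:116461179-116461428 (minus strand) and that of Lta4h at chr10:93453146-93453395 (plus strand).
Alox5: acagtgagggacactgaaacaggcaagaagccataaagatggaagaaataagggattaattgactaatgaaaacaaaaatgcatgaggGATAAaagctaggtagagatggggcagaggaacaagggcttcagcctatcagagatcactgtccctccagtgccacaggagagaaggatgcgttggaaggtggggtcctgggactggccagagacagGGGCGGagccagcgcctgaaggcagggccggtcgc
Lta4h: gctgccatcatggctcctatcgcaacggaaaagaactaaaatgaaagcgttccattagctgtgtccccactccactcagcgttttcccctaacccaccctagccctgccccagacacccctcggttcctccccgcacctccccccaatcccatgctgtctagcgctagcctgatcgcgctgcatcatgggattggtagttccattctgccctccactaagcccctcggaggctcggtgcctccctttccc
The Alox5 window held the GATA motif from -162 to -158 and the GC box from -35 to -30, counted back from -1, the base before the start. The Lta4h window held a match to none of these motifs, which says only that these letters are not in this window. Of all 32851 promoter windows of this length, 22.6% held the GATA motif, 32.7% the GC box, 29.5% the ETS motif, 12.4% the TATA box and 6.47% the cyclic AMP core. RefSeq windows were found for 8 of the 10 genes, with Alox5ap and Alox15 the exceptions. A match is a description of the sequence and does not show that a factor binds there.

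Alox5ap, the membrane protein that presents arachidonic acid to 5-lipoxygenase, differed less than its partner. It had 265 FPKM in WT LSCs and 151 FPKM in STAP-1 KO LSCs, 1.75-fold lower, with a counting interval of the log2 ratio from -0.90 to -0.72. Its difference from Alox5 can be read within each library, where library scaling plays no part. A dependence of the library ratio on transcript length, described below, does not cancel there. The level of Alox5 was 2.91 times that of Alox5ap in WT LSCs (counting interval from 2.78 to 3.05) and 1.0 times in STAP-1 KO LSCs (0.948 to 1.06). These intervals do not overlap, but they cover counting error only. After the length correction described below, the log2 ratios were -2.41 for Alox5 and -1.37 for Alox5ap.

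Ltc4s had the lowest level of the leukotriene branch. It had 4.21 FPKM in WT LSCs and 3.02 FPKM in STAP-1 KO LSCs, which corresponds to 14 estimated reads in each. The FPKM ratio of 0.716 had a counting interval from 0.316 to 1.62, so that neither a 2-fold lower nor an equal level could be distinguished at this depth. Lta4h, which competes with Ltc4s for leukotriene A4, had 24.5 times the level of Ltc4s in WT LSCs (interval from 14.4 to 44.4) and 105 times in STAP-1 KO LSCs, where the interval began at 61.8. Ltc4s overlaps Gm26542 on the opposite strand in the GENCODE M21 annotation, and Alox5ap, Ptgs1 and Hpgds overlap opposite-strand genes as well. No strand-specific counting was stated, so reads of such partners cannot be told apart. Ptges and Hpgd, which had 2 to 5 estimated reads, overlap the same-strand genes Gm13400 and Gm45540.

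The makeup of the branch thus differed between the libraries. Of the summed FPKM of Alox5, Alox5ap, Ltc4s, Lta4h and Alox15, Alox5 made up 67.4% in WT LSCs and 24.4% in STAP-1 KO LSCs. The share of Alox5ap was 23.2% and 24.3%. Lta4h took 9.01% in WT LSCs and 50.8% in STAP-1 KO LSCs. Alox5 had 7.48 times the level of Lta4h in WT LSCs and 0.480 times in STAP-1 KO LSCs.

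In the prostaglandin branch, both cyclooxygenase genes and Hpgds were lower in STAP-1 KO LSCs. Ptgs1, the constitutive cyclooxygenase gene (chromosome 2, from 36230426 to 36252272, plus strand), had 75.7 FPKM in WT LSCs and 26.7 FPKM in STAP-1 KO LSCs, 2.84-fold lower, with a counting interval of the log2 ratio from -1.64 to -1.38. Ptgs2, the cyclooxygenase gene induced by cytokines and growth factors (chromosome 1, from 150100031 to 150108227, plus strand), had 24.8 and 5.48 FPKM, 4.53-fold lower, with an interval from -2.39 to -1.97. Ptgs1 was thus the more abundant cyclooxygenase mRNA in both libraries. It had 3.05 times the level of Ptgs2 in WT LSCs (interval from 2.80 to 3.33) and 4.86 times in STAP-1 KO LSCs (4.2 to 5.64). After the length correction described below, the log2 ratios were -1.55 for Ptgs1 and -1.71 for Ptgs2.

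Hpgds (chromosome 6, from 65117293 to 65144908, minus strand) makes prostaglandin D2, a major prostaglandin of mast cells. It had 10.1 FPKM in WT LSCs and 1.82 FPKM in STAP-1 KO LSCs, from 249 and 62 estimated reads. With 5.56-fold it had the largest fold difference among the 10 genes, and its counting interval ran from -2.91 to -2.08 and overlapped that of Alox5. After the length correction described below, the order turned, with log2 ratios of -2.41 for Alox5 and -2.28 for Hpgds. Ptges had 0.116 FPKM in WT LSCs and 0.139 FPKM in STAP-1 KO LSCs, from 3 and 5 estimated reads. Its ratio of 1.19 had a counting interval from 0.232 to 7.69, and no difference was detectable at this depth.

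The promoters of both cyclooxygenase genes are shown as those of members that differed in the same direction, with the same motifs in capitals. They lie at chr2:36230176-36230425 (plus strand) for Ptgs1 and chr1:150099781-150100030 (plus strand) for Ptgs2.
Ptgs1: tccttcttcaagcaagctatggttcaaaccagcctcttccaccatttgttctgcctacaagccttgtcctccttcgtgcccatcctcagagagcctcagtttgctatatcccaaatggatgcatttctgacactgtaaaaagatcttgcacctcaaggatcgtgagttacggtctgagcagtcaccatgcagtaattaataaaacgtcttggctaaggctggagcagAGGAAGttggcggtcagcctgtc
Ptgs2: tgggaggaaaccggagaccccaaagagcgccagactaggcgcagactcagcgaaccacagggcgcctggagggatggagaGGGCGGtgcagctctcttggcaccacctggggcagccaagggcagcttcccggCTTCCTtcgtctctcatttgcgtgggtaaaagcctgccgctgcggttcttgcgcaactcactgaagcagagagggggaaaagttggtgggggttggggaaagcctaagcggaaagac
The ETS motif was found in these windows and in that of Hpgds, from -23 to -18 in Ptgs1, from -117 to -112 on the other strand in Ptgs2, and at -66 to -61 and -48 to -43 in Hpgds. The Hpgds window is not printed because the GENCODE transcript starts upstream of the RefSeq start, so that its ETS matches lie within its first exon. The ETS motif was found in 5 of the 8 windows of the enzyme genes, those of Ltc4s and Hpgd included, but not in those of Alox5, Lta4h and Ptges. The GC box was found in 4 of the 8, those of Alox5, Ptgs2, Ptges and Hpgd, and the GATA motif only in that of Alox5 among the 8. Both strands were also searched for the looser motifs of AP-1 (TGANTCA), C/EBP factors (TTNNGNAA) and the E-box (CANNTG), which are not in capitals. The AP-1 motif was found in 0 of the 8 windows and in 6.75% of all windows. The C/EBP motif was found in 4 of the 8, those of Ptgs2, Hpgds, Ptges and Hpgd, and in 36.8% of all windows. The E-box was found in 6 of the 8, all but those of Alox5 and Lta4h, and in 66.2% of all windows.

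The remaining enzyme genes were near the floor. Alox15 had 0.302 FPKM in WT LSCs and 0.260 FPKM in STAP-1 KO LSCs, from 5 and 6 estimated reads, with a counting interval of the ratio from 0.219 to 3.56. Hpgd had 0.441 and 0.126 FPKM, from 5 and 2 estimated reads. Its interval from 0.0273 to 1.75 included equal levels, although its FPKM ratio passed the cut-off.

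**Figure D2:**
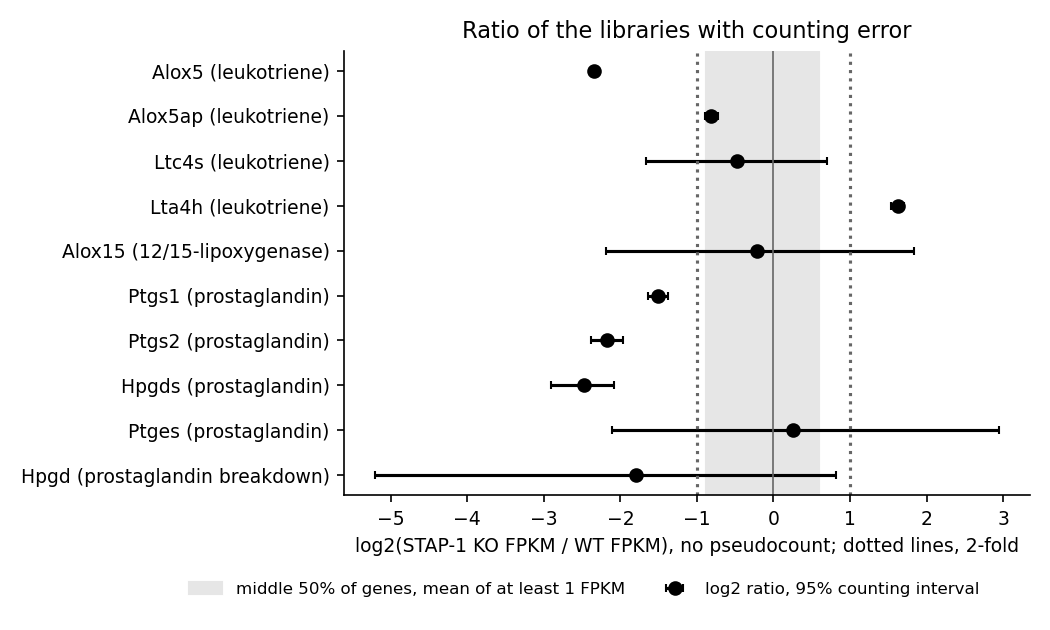
Log2 ratio of STAP-1 KO to WT FPKM without a pseudocount for each enzyme gene, with 95% exact counting intervals from estimated reads; the grey band is the middle 50% of the 10974 genes averaging 1 FPKM or more (-0.88 to 0.59, pseudocount of 0.1 FPKM) and dotted lines mark 2-fold. Alox5, Ptgs1, Ptgs2 and Hpgds lie below the band and Lta4h above it with their whole intervals, while those of Ltc4s, Alox15, Ptges and Hpgd include 0.

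When the branches were compared, the 4 leukotriene genes had a median log2 ratio of -0.64, with a range from -2.34 to 1.62, and the 4 prostaglandin genes had a median of -1.83, with a range from -2.41 to 0.14. The counting interval ran from -1.28 to -0.01 for the leukotriene median and from -2.25 to -1.67 for the prostaglandin median. The leukotriene median lies between Alox5ap and Ltc4s, and Ltc4s had 14 estimated reads in each library. The difference between the medians was 1.19, with a counting interval from 0.39 to 2.24, and was not tested. The ranges overlapped over most of their length, and the leukotriene genes did not move together. Summed over each branch, the leukotriene genes had 1143 FPKM in WT LSCs and 622 FPKM in STAP-1 KO LSCs, 1.84-fold lower, and the prostaglandin genes had 111 and 34.1 FPKM, 3.25-fold lower. Ptgs1 made up 68.3% and 78.2% of the prostaglandin sum, and the leukotriene sum was led by Alox5 in WT LSCs and by Lta4h in STAP-1 KO LSCs.

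The comparison of the branches varied with a correction for transcript length. Across 10889 genes within this pair of libraries, Spearman's rho between log2 ratio and transcript length was -0.40, as a description across genes that are not independent. The median log2 ratio of genes of like length was 0.56 for the 1251 bases of Alox5ap, 0.50 for the 649 bases of Ltc4s and -0.44 for the 4453 bases of Ptgs2. After it was taken off, the leukotriene median was -1.17, the prostaglandin median -1.63 and their difference 0.46. Alox5ap then had a log2 ratio of -1.37 and was past the 2-fold cut-off, which made 6 genes lower and 1 higher. Of all 12388 genes compared with this correction, 19.1% were lower and 11.7% higher. Alox5 at -2.41, Ptgs1 at -1.55, Ptgs2 at -1.71, Hpgds at -2.28 and Lta4h at 1.30 remained past the cut-off.

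The wider pathway was described with 66 other genes in 8 lists. These lists and the marker lists below were chosen with earlier results of these data known. Of these, 41 had at least 0.1 FPKM in both libraries, and 17 of the 41 were at least 2-fold lower and 4 at least 2-fold higher in STAP-1 KO LSCs. For all genes the same shares were 22.9% and 12.3%, and the counts of each list below are to be read beside them. With few genes in a list, a count near these shares shows no direction of its own. Their median log2 ratio over 38 genes averaging 1 FPKM or more was -0.75. A further 11 genes were listed at 0 in both libraries, among them the secreted phospholipase genes Pla2g1b and Pla2g5.

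Upstream of both branches, the phospholipase A2 genes had no common direction, with 2 of 5 compared genes lower and none higher. Pla2g4a, the cytosolic phospholipase that releases arachidonic acid, had 41.3 FPKM in WT LSCs and 70.9 FPKM in STAP-1 KO LSCs, below the cut-off. Pla2g12a had 82.3 and 118 FPKM, also below it. The lysosomal Pla2g15 was lower, with 50.5 and 18.2 FPKM. So was Pla2g4c, with 14.5 and 1.54 FPKM.

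Among the genes that load arachidonic acid into lipids and free it again, 3 of 7 were lower and none was higher. Acsl4, the acyl-CoA synthetase with a preference for arachidonic acid, had 39.4 FPKM in WT LSCs and 9.12 FPKM in STAP-1 KO LSCs. The acyltransferase genes Mboat7 and Lpcat2 had 61.7 and 13.4 FPKM, and 71.3 and 18.8 FPKM. Lpcat3, at 138 and 77.9 FPKM, was below the cut-off. Mboat7 and Lpcat3 overlap genes of the opposite strand that were also listed, Tsen34 and Emg1, and both of those had higher values in STAP-1 KO LSCs.

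Of the other lipoxygenase genes, Alox8 had 19.5 FPKM in WT LSCs and 1.31 FPKM in STAP-1 KO LSCs, 14.9-fold lower. Its level was therefore far above that of Alox15 in WT LSCs. Alox12, the platelet-type 12-lipoxygenase gene, had 0.767 and 1.48 FPKM and was below the cut-off. Alox12e had 0.0635 FPKM in WT LSCs and was listed at 0 in STAP-1 KO LSCs.

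Of the other prostanoid synthase genes, 1 of 5 was lower and 1 was higher. Tbxas1, which makes the platelet activator thromboxane A2, had 90.1 FPKM in WT LSCs and 26.1 FPKM in STAP-1 KO LSCs, 3.46-fold lower. It overlaps Hipk2 on the opposite strand, which was listed at 14.8 and 5.52 FPKM. Ptges3, which encodes a prostaglandin E synthase that is also a co-chaperone of Hsp90, had 60.3 and 122 FPKM, a ratio of 2.02 just past the cut-off. Cbr1 and Ptges2 had 29.9 and 36.6 FPKM, and 20.6 and 34.5 FPKM, both below it. Ptges2 and Ptges3 thus had far higher levels than Ptges in both libraries.

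Around Ltc4s, the related microsomal glutathione transferase genes did not differ alike. In the list of other leukotriene enzymes, none of 5 compared genes was lower and 2 were higher, Mgst1 and the glutamyl transferase gene Ggt5, which had 0.238 and 1.09 FPKM. Mgst3 had 115 FPKM in WT LSCs and 103 FPKM in STAP-1 KO LSCs, and Mgst2, which can also make leukotriene C4, had 19.6 and 18.1 FPKM. Both were below the cut-off and above Ltc4s in level. Mgst1 had 3.45 and 23.0 FPKM, 6.67-fold higher in STAP-1 KO LSCs. Of the genes that take leukotriene C4 further, Ggt1 had 1.54 and 0.843 FPKM.

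In the list of breakdown and transport, 4 of 7 genes were lower and none was higher. The leukotriene C4 exporter gene Abcc1 had 31.2 FPKM in WT LSCs and 6.25 FPKM in STAP-1 KO LSCs, 4.99-fold lower. Cyp4f18, which oxidises leukotriene B4, had 13.2 and 4.41 FPKM. The reductase genes Ptgr1 and Ptgr2 were below the cut-off, with 15.3 and 27.0 FPKM, and 37.2 and 36.3 FPKM.

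Receptor genes were counted by branch. Of 6 compared prostanoid receptor genes, 3 were lower and 1, the thromboxane receptor gene Tbxa2r, was higher, and of 4 leukotriene and lipoxin receptor genes 3 were lower and none was higher. Ptger3, a prostaglandin E2 receptor, had 157 FPKM in WT LSCs and 37.6 FPKM in STAP-1 KO LSCs. Ptger1 and the prostacyclin receptor gene Ptgir had 18.4 and 1.81 FPKM, and 16.8 and 4.95 FPKM, whereas Ptger4 had 28.9 and 18.4 FPKM and was below the cut-off.

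The receptors for the products of Lta4h and Ltc4s were at unlike levels. Ltb4r1, the high-affinity leukotriene B4 receptor gene, had 93.1 FPKM in WT LSCs and 15.7 FPKM in STAP-1 KO LSCs, 5.94-fold lower, while Lta4h was 3.07-fold higher. Ltb4r2, the low-affinity receptor, had 4.77 and 0.155 FPKM, the latter from about 2.0 estimated reads. The cysteinyl leukotriene receptor gene Cysltr1 had 2.25 and 0.863 FPKM, and Cysltr2 had 0.347 and 0.435 FPKM from few reads.

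**Figure D3:**
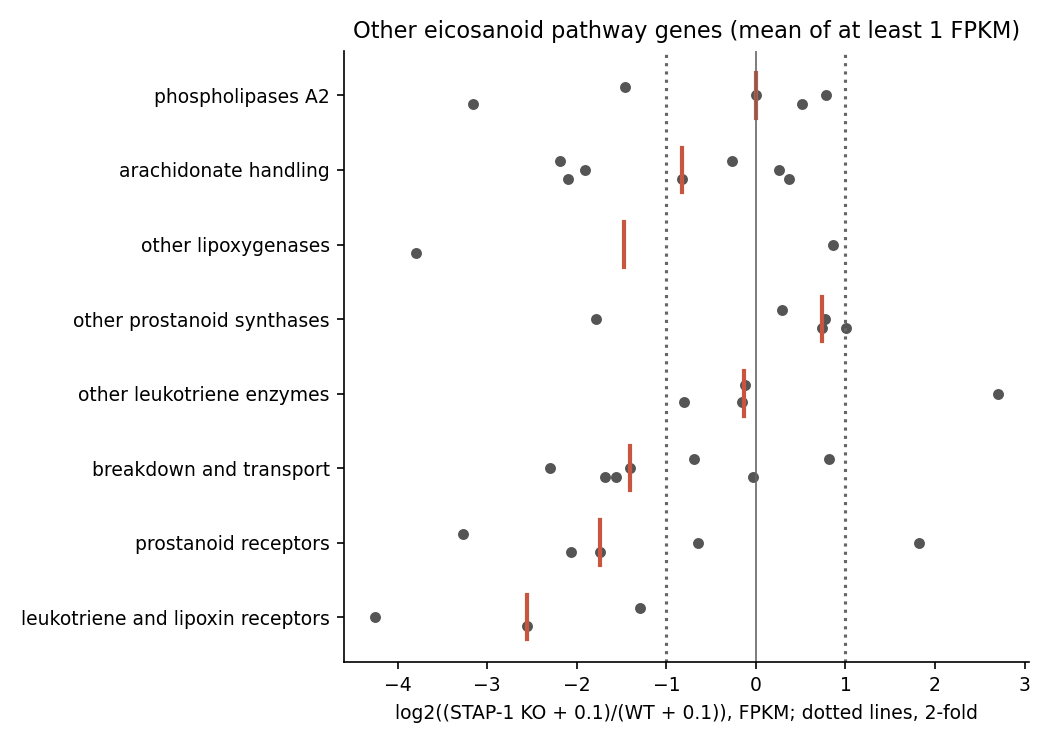
Log2 ratio, log2((STAP-1 KO + 0.1)/(WT + 0.1)), of the other eicosanoid pathway genes averaging 1 FPKM or more, by list; each point is a gene (vertical offset only separates points), red bars are list medians and dotted lines mark 2-fold. The list medians run from -2.56 for the leukotriene and lipoxin receptors to 0.74 for the other prostanoid synthases.

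Markers of other cell types also differed between the libraries. Their counts stand beside the same shares of all genes, 22.9% at least 2-fold lower and 12.3% at least 2-fold higher. All 10 mast cell and basophil markers had a log2 ratio below 0, and 9 were at least 2-fold lower. Their summed level was 51460 FPKM in WT LSCs and 5276 FPKM in STAP-1 KO LSCs, 9.75-fold lower, and none was listed at 0. The 3 most abundant, the protease genes Cpa3 and Cma1 and the tryptase gene Tpsb2, had 17984 and 1775 FPKM, 13924 and 1168 FPKM, and 7016 and 185 FPKM. Single markers ranged from 1.25-fold (Prss34) to 49.1-fold lower (Tpsab1), with Mcpt8 at 2.82-fold and Mcpt4 at 3.08-fold. The fold differences of Alox5, Ptgs1, Ptgs2 and Hpgds, from 2.84 to 5.56, lay within this range. So would those of any gene from 1.25-fold to 49.1-fold lower, so a place in this range does not set these genes apart. The part of mast cell and basophil RNA in the lower values of the enzyme genes was not tested.

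The primary granule markers of granulocyte progenitors differed in the direction of Lta4h. All 5 were at least 2-fold higher in STAP-1 KO LSCs, with a summed level of 564 FPKM in WT LSCs and 4623 FPKM in STAP-1 KO LSCs, 8.20-fold higher. Mpo had 248 and 1973 FPKM, Ctsg 104 and 841 FPKM, and Elane 112 and 823 FPKM. Their part in the level of Lta4h was not tested.

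Other marker lists were at lower levels. Of the 8 mature neutrophil markers, 6 were lower and none was higher, with sums of 402 FPKM in WT LSCs and 159 FPKM in STAP-1 KO LSCs. S100a8 had 204 and 108 FPKM, S100a9 had 104 and 30.0 FPKM, and Ngp had 52.3 and 9.72 FPKM. The 8 monocyte and macrophage markers had sums of 195 and 148 FPKM, with 4 lower and 2 higher, the latter including Ly6c2 at 20.5 and 98.0 FPKM beside Cd68 at 95.7 and 26.3 FPKM and Ccr2 at 41.8 and 10.3 FPKM. The 7 megakaryocyte and platelet markers had sums of 216 and 137 FPKM, with 3 lower and 1 higher. Itga2b had 123 and 32.5 FPKM, Pf4 had 57.9 and 71.2 FPKM, and Gp1ba had 19.6 and 4.43 FPKM. Eosinophil markers summed to 39.0 and 90.5 FPKM, with 2 lower and 3 higher of 6 compared, and Prg2 had 2.12 and 61.7 FPKM, Siglec5 had 27.9 and 11.4 FPKM, and Epx had 1.02 and 8.62 FPKM. The 4 T lymphoid markers summed to 15.2 and 48.7 FPKM, with 2 higher and none lower. Lck had 11.8 and 41.9 FPKM, Cd3g had 1.80 and 5.04 FPKM, and Cd3e had 0.869 and 1.09 FPKM. The 5 B lymphoid markers summed to 0.678 and 1.46 FPKM, with 1 higher and none lower of 2 compared. Vpreb1 had 0.476 and 0.853 FPKM. Igll1, the gene called higher, had 0.202 and 0.433 FPKM from only about 0.998 and 2.99 estimated reads. Cd79a was listed at 0 in WT LSCs and had 0.171 FPKM in STAP-1 KO LSCs, and Pax5 was listed at 0 in both. The part of these cells in the values of the enzyme genes was likewise not tested.

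**Figure D4:**
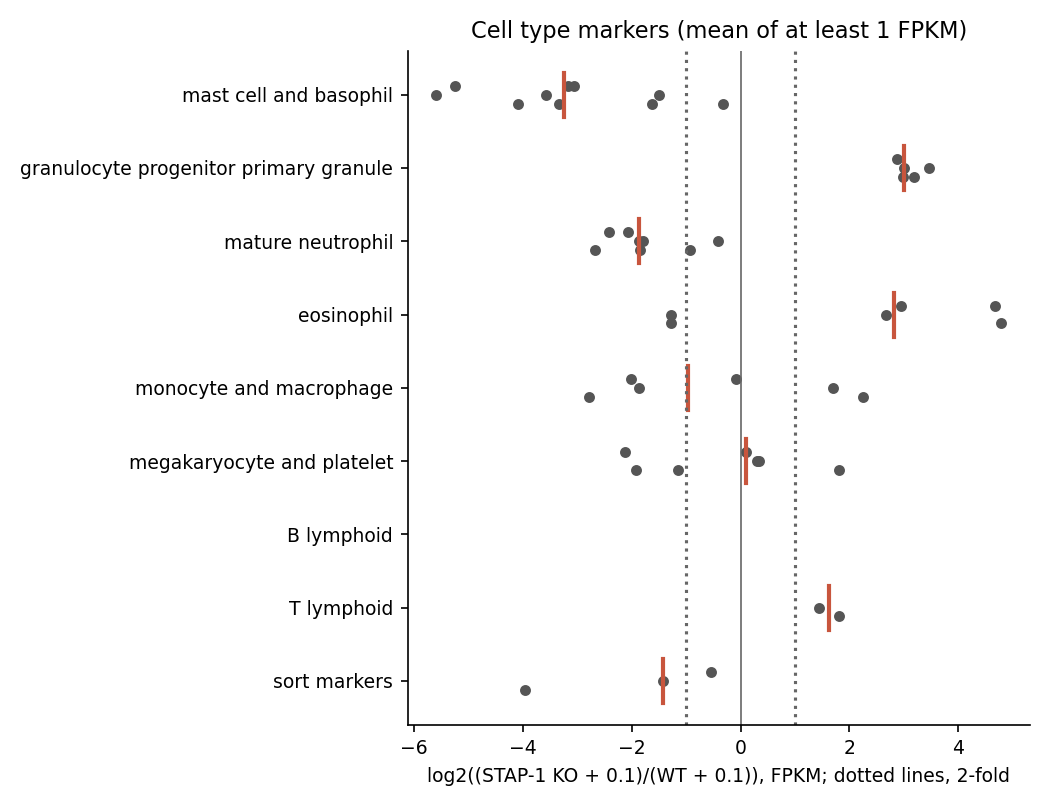
Log2 ratio, log2((STAP-1 KO + 0.1)/(WT + 0.1)), of cell type markers averaging 1 FPKM or more, by list; each point is a gene (vertical offset only separates points), red bars are list medians and dotted lines mark 2-fold. The mast cell and basophil median is -3.26 and the primary granule median 3.01, and no B lymphoid marker reaches 1 FPKM.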

How the data were processed

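GFP+ CD45.2+ LSK cells were sorted, and RNA was amplified with a SMART-Seq v4 low-input kit and sequenced from 1 end. Alignment by the authors to mm10 used TopHat2 2.0.13 and Bowtie2 2.2.3, and the FPKM values per gene that they deposited came from Cuffnorm (Cufflinks 2.2.1, per the labels). The gene annotation and the library scaling were not given in the sources used here.

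The software was scipy 1.17.1, pandas 2.3.3, numpy 2.4.6 and matplotlib 3.10.9 under Python 3.11.15. A gene was past the cut-off at a 2-fold FPKM ratio where neither library was under 0.1 FPKM, and log2 ratios used a pseudocount of 0.1 FPKM. Effective depth was read from the steps between values under 0.3 FPKM of genes with 1 annotated transcript, of which 47.5% (WT) and 48.7% (STAP-1 KO) lay within 0.01 of a whole read after 210 bases were taken off each transcript. Estimated reads used the longest RefSeq-linked GENCODE M21 transcript of GRCm38 (with none, the longest coding one). Of the symbols, 20911 matched GENCODE as written, 1974 through another symbol and 399 not. The length correction subtracted the median log2 ratio of genes of like length in 20 bins. The calls and the depth estimate were checked on simulated FPKM values with independent (Poisson) reads and 1 transcript length per gene. Reads of amplified cDNA differ from this, so the check does not cover error from amplification.

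All 10 enzyme genes were named, with up to 4 genes of highest FPKM from each pathway list and 3 from each marker list. Pla2g1b, Pla2g5, Ggt5, Dpep2, Ptgds, Ptgis, Tbxa2r, Gpr44, Ptgdr, Prss34, Tpsab1, Mcpt8, Mcpt4, Pax5 and overlapping genes were named after their values were seen, as examples. Members and lists were chosen with earlier results of these data known. Alternatives changed the floor, pseudocount, scaling, cut-off, branch membership and length correction, and a minimum of 10 estimated reads was added after seeing the data.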

Additional observations from a re-analysis of the deposited data

How the results depend on the processing

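With a 4-fold cut-off, 3 of the 10 enzyme genes (Alox5, Ptgs2 and Hpgds) were lower in STAP-1 KO LSCs and 0 were higher. The same counts were 9 and 2 of the 41 other pathway genes compared, and 1071 and 300 of all 12507 genes compared. With a 1.5-fold cut-off, 6 of the 10 enzyme genes were lower and 1 was higher. The same counts were 21 and 10 of the 41 other pathway genes, and 4101 and 3201 of all 12507 genes. The prostaglandin median was -1.63 after the length correction and -1.50 when Hpgd was counted in it. The difference between the branch medians ran from 0.46 with the length correction to 1.20 with a pseudocount of 0.01 FPKM. Of the alternative values for counts and medians, 71 stayed within 1.5 times the main count or within the counting interval of the median, and 10 did not. No rescaling changed the side of the cut-off of an enzyme gene, and the largest shift by rescaling was 0.10 on the log2 scale. Ltc4s, Alox15, Ptges and Hpgd rest on too few estimated reads to tell a 2-fold difference from none. No paired analysis was possible because each genotype had 1 library.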

Other observations

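Several pathway genes were under 0.1 FPKM in at least 1 library and were therefore left out of the counts. The dipeptidase gene Dpep2, which acts on leukotriene D4, had 1.20 FPKM in WT LSCs and 0.0613 FPKM in STAP-1 KO LSCs, from about 14.7 and 1.05 estimated reads. Its span overlaps Dus2l on the opposite strand, which was listed at 9.37 and 14.3 FPKM. Gpr44, which encodes the prostaglandin D2 receptor also named Ptgdr2, was listed at 0 FPKM in WT LSCs and had 0.0818 FPKM in STAP-1 KO LSCs, and Ptgdr, the other prostaglandin D2 receptor gene, was listed at 0 in both. The prostaglandin synthase genes Ptgds and Ptgis were each listed at 0 in 1 library and under 0.3 FPKM in the other.

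Among the pathway genes that were higher in STAP-1 KO LSCs, the thromboxane receptor gene Tbxa2r had 1.64 FPKM in WT LSCs and 6.03 FPKM in STAP-1 KO LSCs, while the thromboxane synthase gene Tbxas1 had 90.1 and 26.1 FPKM.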
